A study of Mus musculus with 2 samples.

Results

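Serotonin, noradrenaline, adrenaline, dopamine and, through its muscarinic branch, acetylcholine act on receptors that nearly all belong to the G protein-coupled family, in which the bound receptor activates a G protein inside the cell. Gs-coupled receptors raise cyclic AMP through adenylyl cyclase, Gi/o-coupled receptors lower it and open potassium channels, and Gq/11-coupled receptors activate phospholipase C and release calcium. The Htr3 subunits are the exception, since they form an ion channel that serotonin opens directly. The hindbrain holds the raphe nuclei, the source of most serotonin fibres of the brain, the locus coeruleus, the source of most noradrenaline fibres, and the cholinergic motor nuclei of the cranial nerves, so receptors on the cells of origin (autoreceptors) and on their targets can both be sampled there.

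The 32 genes described here were 14 serotonin, 8 adrenergic, 5 dopamine and 5 muscarinic receptor genes, named in a fixed list and matched by symbol among 43346 genes, of which 21474 are protein-coding. Total RNA longer than 200 bases had been sequenced from healthy B6NCrl mouse hindbrain at embryonic day 16.5, with 10 ng of starting RNA and added spike-ins. The only group held 2 biological replicates, each a pool of male and female embryos with no treatment or engineered allele, and replicate 2 pooled 37 embryos. The labels give both pools the same donor identifier. Since there was 1 group, no condition was compared, and permuting 2 libraries could give no p below 0.5, so levels and differences are descriptions set against the spread of the replicates. These were bulk tissue pools, in which fewer cells of a type and less RNA per cell cannot be told apart.

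The libraries held 41543180 and 41346951 expected counts in genes, and the 32 receptors took 0.0197% of them in replicate 1 and 0.0202% in replicate 2. Detection meant at least 1 TPM (a level corrected for transcript length and scaled to a fixed total) in both libraries. Hindbrain markers passed it in 11 of 12 cases and summed to 319 and 337 TPM, led by Hoxb5 at 100.3 and 111 TPM, with En2 below it at 0.34 and 0.46 TPM. The libraries stood apart in tissue markers: all 8 skeletal muscle genes were over 2-fold higher in replicate 1 (sums of 365 and 16.5 TPM), as were 7 of 11 forebrain and striatum genes with 10 counts or more (sums over 13 listed genes of 45.5 and 26.5 TPM). Astrocyte markers were the other way in part, with sums of 773 and 941 TPM. Over 2-fold higher in replicate 2 were 2 of 7 genes, Gfap (4.03 and 13.0 TPM) and Aqp4 (12.1 and 26.8 TPM). The highest marker, Aldoc, had 329 and 475 TPM, while Slc1a3 (222 and 214 TPM) and Gja1 (118 and 114 TPM) were level. Counts over all genes differed between the replicates far beyond counting noise (chi-square per degree of freedom 23.9), so the replicates were used as separate libraries.

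The highest receptors are spliced in forms that differ in what protein they encode, and the stretches that differ are shown first because much of the measured Htr7 and Htr2c RNA turned on them. Htr7 (chr19:35958734-36057507, minus strand, GRCm38) encodes a Gs-coupled serotonin receptor. Its transcript Htr7-205 uses a donor site a few bases downstream of the one used by Htr7-202. The 5 added bases, at chr19:35969304-35969308, are in capitals, and the coding sequence of 435 codons ends in the taa stop that they bring into frame, against 448 codons in Htr7-202:
Htr7-205: aagcgagtttgtgctGTAAGacaaaactg
Htr7-202: aagcgagtttgtgctacaaaactg
Htr7-204 includes a cassette exon of 58 bases at chr19:36041555-36041612, in capitals here, and is annotated as a target of nonsense-mediated decay, the pathway that degrades RNAs with an early stop codon. Its reading frame has 198 codons:
Htr7-204: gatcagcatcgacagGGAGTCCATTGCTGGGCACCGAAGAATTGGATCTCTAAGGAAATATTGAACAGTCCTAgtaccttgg
Htr7-202: gatcagcatcgacaggtaccttgg
Htr2c (chrX:146962513-147197277, plus strand) encodes a Gq/11-coupled serotonin receptor. Htr2c-201 holds a coding stretch of 95 bases, at chrX:147169676-147169770 and in capitals, that Htr2c-207 lacks. This stretch contains the adenosines that RNA editing enzymes are known to convert to inosine in Htr2c. The full-length form has 459 codons and the form without the stretch has 172:
Htr2c-201: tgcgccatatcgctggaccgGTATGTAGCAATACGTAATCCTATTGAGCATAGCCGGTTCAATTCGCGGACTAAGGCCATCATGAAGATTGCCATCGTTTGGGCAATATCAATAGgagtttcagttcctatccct
Htr2c-207: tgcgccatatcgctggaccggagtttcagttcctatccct
All 6 sequences are read 5′ to 3′ in the sense of the gene from the GENCODE M21 transcripts on GRCm38.

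Of the 32 receptors, 18 were detected, which is 56.2% of them, against 63.5% of all protein-coding genes. The receptors were low: their median of mean TPM was 1.22, against 5.82 for all protein-coding genes. The summed receptor level was nearly the same in both libraries, at 101 and 100 TPM. The highest receptor, Adra1b, stood at percentile 63.8 of protein-coding genes, followed by Htr7 at 62.5, Htr2c at 60.3, Chrm2 at 57.5 and Htr1b at 51.9. By transcript levels the serotonin family contributed 51.1% and 52.8% of the receptor sum (replicate 1, then replicate 2), the adrenergic family 24.0% and 25.3%, the muscarinic family 15.8% and 16.5%, and the dopamine family 9.07% and 5.44%.

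**Figure D1:**
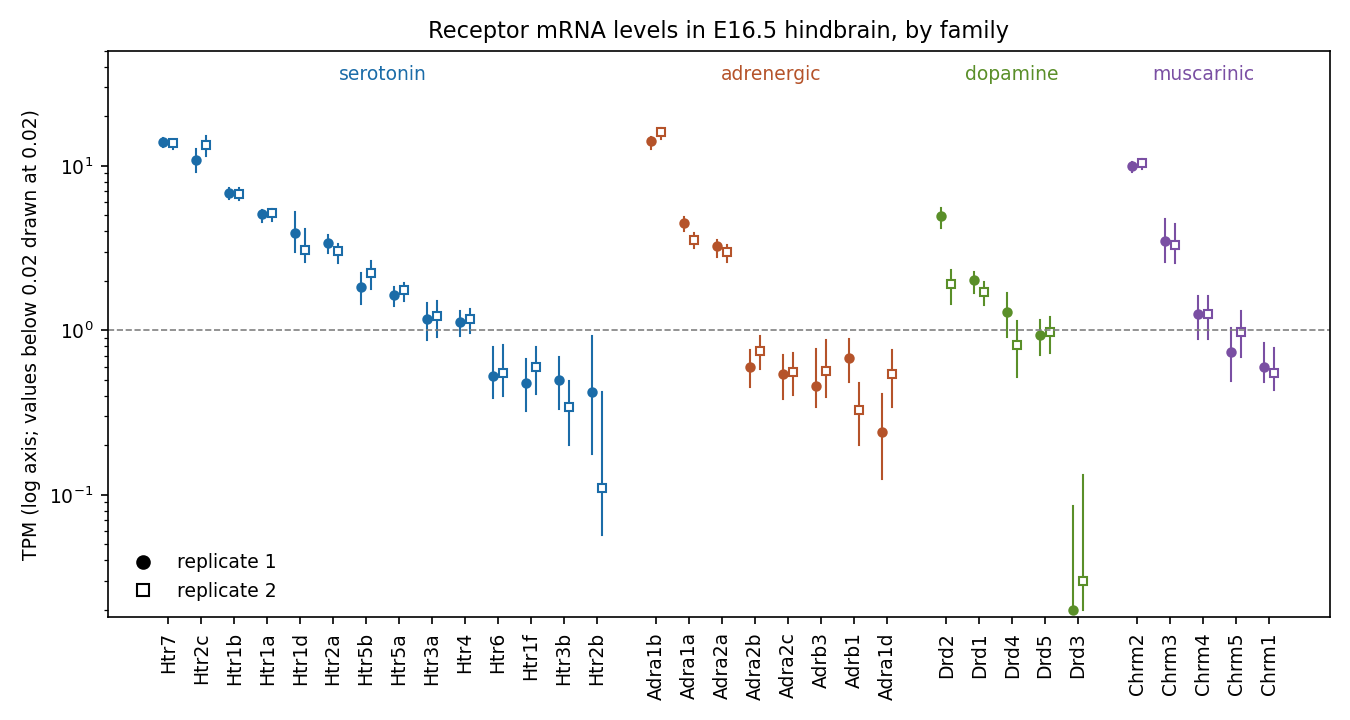
TPM of the 32 receptor genes (log axis) by family, with replicate 1 as filled circles, replicate 2 as open squares and the deposited interval of each value as a line. The dashed line marks 1 TPM. Adra1b, Htr7, Htr2c and Chrm2 lie highest, and the Drd2 intervals of the libraries do not overlap.

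Serotonin receptors had the highest detected share of the families at the 1 TPM minimum, though not at 0.5 TPM, where 11 of 14 passed, against 5 of 5 muscarinic, 4 of 5 dopamine and 5 of 8 adrenergic genes. Of 14 genes 10 reached 1 TPM in both libraries, and the median of mean TPM was 1.87. Htr7 had 14.02 TPM in replicate 1 and 13.66 TPM in replicate 2 (13.8 ± 0.255, SD, n = 2), on 1039 and 1045 counts. Its replicates lay closer together than those of Adra1b, Htr2c or Chrm2. The other Gs-coupled serotonin receptors were much lower. Htr4, best known in the gut and the heart atrium as well as the brain, had 1.13 and 1.17 TPM. Htr6, which in the adult is known from striatum and cortex, had 0.53 and 0.55 TPM and missed the minimum in both libraries. Htr7 exceeded Htr6 25.6-fold on the TPM scale (26.5-fold in replicate 1 and 24.8-fold in replicate 2), and the deposited intervals of these genes were apart in each library. Over coding transcripts alone the ratio was 16.5-fold.

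Among the Gq/11-coupled serotonin receptors, Htr2c led. It had 10.82 TPM in replicate 1 and 13.29 TPM in replicate 2 (12.1 ± 1.75), although its counts were close, at 873 and 928. Htr2a, the cortical receptor on which classical hallucinogens act, had 3.41 and 3.02 TPM, so Htr2c was 3.74-fold higher, with intervals that did not overlap, and 2.13-fold higher over coding transcripts alone. Htr2b, known from heart valve development, had 0.42 and 0.11 TPM on 10 and 5.60 counts. It overlaps Psmd1, a proteasome gene on the opposite strand that had 165 and 162 TPM, and whether counting used strand is not given. Htr2c RNA is known to be abundant in choroid plexus epithelium, which lines the ventricle roof. All 10 choroid plexus markers were detected, with sums of 1630 and 1994 TPM, led by Ttr at 1422 and 1775 TPM. Their part in the Htr2c level was not tested.

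The Gi/o-coupled serotonin receptors followed the order Htr1b, Htr1a, Htr1d, Htr5a, Htr1f. Htr1b, the autoreceptor of serotonin terminals, had 6.79 and 6.72 TPM (6.75 ± 0.0495) on 788 and 800 counts. Htr1a, the autoreceptor of raphe cell bodies, had 5.06 and 5.13 TPM (5.09 ± 0.0495) on 552 and 573 counts. Htr1b was 1.33-fold higher than Htr1a, a small difference that was nonetheless larger than the replicate spread (log2 ratio 0.41 ± 0.02) and whose intervals did not overlap in either library. Htr1b overlaps the antisense gene D430036J16Rik, which had 9.81 and 9.08 TPM, and reads of the opposite strands cannot be told apart where strand was not used. Htr1d, a second terminal autoreceptor and the target of triptan drugs together with Htr1b, had 3.93 and 3.09 TPM. Its level was below that of Htr1b in both libraries (log2 ratio of Htr1d over Htr1b -0.95 ± 0.23). Htr5a had 1.64 and 1.75 TPM. Htr1f had 0.48 and 0.60 TPM and was not detected.

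Of the remaining serotonin receptor genes, Htr5b, which is a working gene in mouse and a pseudogene in human, had 1.84 and 2.24 TPM and could not be separated from Htr5a by the intervals. Htr3a, the subunit that every serotonin-gated channel contains, had 1.17 and 1.22 TPM. Htr3b, the modulatory subunit of that channel, had 0.50 and 0.34 TPM, and Htr3a was 2.90-fold higher with no overlap of intervals. In the family's order of mean TPM, only 3 of 13 neighbouring steps had intervals that did not overlap in either library, namely Htr2c above Htr1b, Htr1b above Htr1a, and Htr4 above Htr6. The step between Htr7 and Htr2c was not among them.

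Adrenergic receptors were fewer and led by a single gene. Detection covered 3 of 8 genes, 37.5%, and the median over the family was 0.613 TPM. Adra1b (chr11:43774606-43901210, minus strand), a Gq/11-coupled receptor for noradrenaline, had 14.08 TPM in replicate 1 and 16.02 TPM in replicate 2 (15.1 ± 1.37) on 843 and 969 counts. Its share of the family's sum was 57.9% in replicate 1 and 63.3% in replicate 2. Adra1a, its close relative, had 4.48 and 3.56 TPM, so Adra1b was 3.76-fold higher (3.14-fold in replicate 1 and 4.5-fold in replicate 2). Adra1d had 0.24 and 0.54 TPM on 11 and 25 counts.

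The Gi/o-coupled alpha-2 receptors were likewise dominated by a single member. Adra2a, the autoreceptor of noradrenaline neurons, had 3.24 and 2.99 TPM (3.12 ± 0.177). Adra2b, known from blood vessels and thalamus, had 0.60 and 0.75 TPM. Adra2c, a second presynaptic alpha-2 receptor, had 0.54 and 0.56 TPM. Adra2a exceeded Adra2c 5.66-fold, with no overlap of intervals. The Gs-coupled beta receptors listed here were below the minimum: Adrb1, the main receptor of heart muscle, had 0.68 and 0.33 TPM, and Adrb3, known from fat, had 0.46 and 0.57 TPM. Adrb1 was the higher of them in replicate 1 and the lower in replicate 2. The neighbouring steps that separated were Adra1b above Adra1a and Adra2a above Adra2b, 2 of 7.

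Muscarinic receptors were split between high Chrm2 and 4 lower genes. Chrm2 (chr6:36388084-36528414, plus strand), the Gi/o-coupled receptor that slows the heart and serves as an autoreceptor on cholinergic neurons, had 9.93 and 10.42 TPM (10.2 ± 0.346) on 1332 and 1398 counts. It made up 61.9% and 63.2% of its family's sum. Its locus overlaps the long noncoding RNA 9330158H04Rik on the opposite strand, at 5.08 and 6.07 TPM. Chrm4, the other Gi/o-coupled member and best known in striatum, had 1.25 TPM in both libraries, so Chrm2 was 8.14-fold higher.

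Among the Gq/11-coupled muscarinic receptors, Chrm3, known from glands and smooth muscle, led with 3.51 and 3.28 TPM. Chrm5, the receptor of midbrain dopamine neurons, had 0.74 and 0.98 TPM, just under the minimum in replicate 2. Chrm1, the main muscarinic receptor of adult cortex and hippocampus, had 0.60 and 0.55 TPM. Chrm3 was 5.91-fold higher than Chrm1 with no overlap of intervals, and 3.80-fold higher over coding transcripts alone. The steps from Chrm2 to Chrm3 and from Chrm3 to Chrm4 separated in both libraries, while Chrm4, Chrm5 and Chrm1 did not separate as neighbours.

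Dopamine receptors were the lowest family by summed TPM, with 9.19 in replicate 1 and 5.45 in replicate 2, and 2 of 5 were detected. Drd2, the Gi/o-coupled autoreceptor of dopamine neurons that also marks striatal neurons of the indirect pathway, had 4.95 TPM in replicate 1 and 1.90 TPM in replicate 2. Drd1, the Gs-coupled receptor of the direct pathway, had 2.01 and 1.72 TPM on 173 and 152 counts. Drd2 was 2.46-fold higher than Drd1 in replicate 1, where the intervals did not overlap, and 1.10-fold higher in replicate 2, where they did, so the order of these genes rested on replicate 1. Drd4 had 1.29 and 0.82 TPM, and its level was below Drd2 in both libraries (log2 ratio of Drd4 over Drd2 -1.58 ± 0.51). Drd5, Gs-coupled like Drd1, had 0.94 and 0.98 TPM and so fell just short of the minimum. Drd3 was listed at 0 in replicate 1 and had 1 count in replicate 2, so its level was at or under the limit that 3 counts set. The only neighbouring step of 4 that separated was Drd5 above Drd3.

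**Figure D2:**
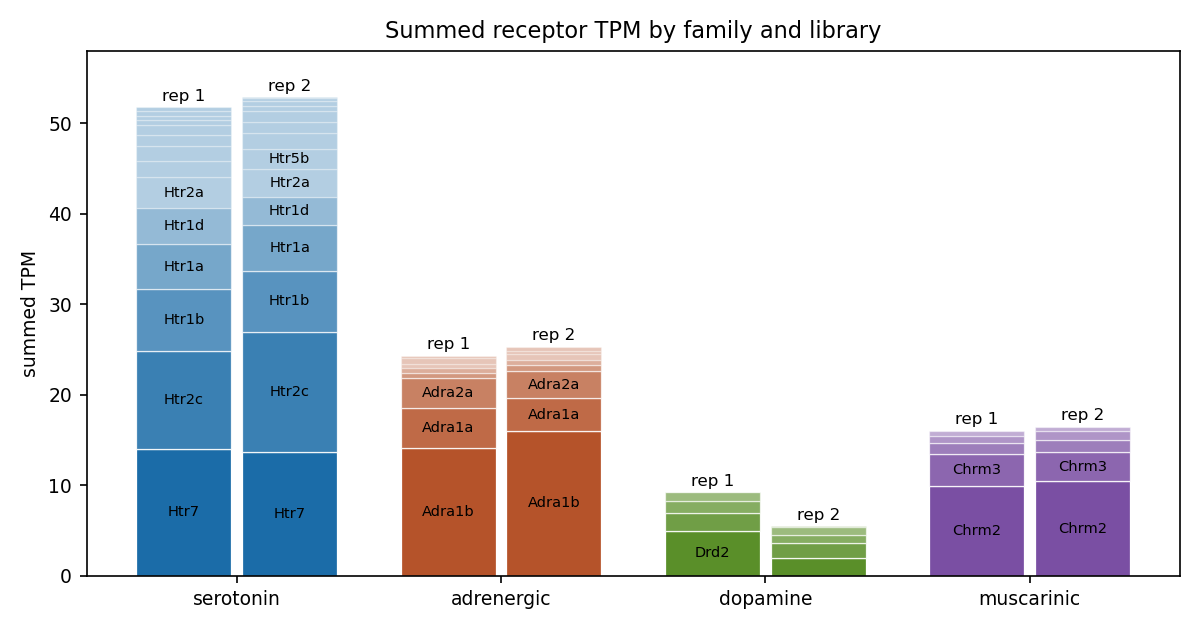
Summed TPM of each receptor family in each library (bars from 0), with members stacked from the highest mean at the bottom and those above 2.2 TPM named. The serotonin bars reach 51.7 and 52.9 TPM, the adrenergic 24.3 and 25.3, the muscarinic 16.0 and 16.5, and the dopamine 9.19 and 5.45, the last with a smaller Drd2 segment in replicate 2.

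Set side by side, detected shares ran from 71.4% of serotonin genes and 60.0% of muscarinic genes to 40.0% of dopamine and 37.5% of adrenergic genes, around the 63.5% of all protein-coding genes. With 5 to 14 genes in a family these shares describe the lists, and no test was made of them. Over all 496 pairs of members, 358 had intervals that did not overlap in either library and the same order in both. Of the 13 pairs set for comparison 10 did so. The exceptions were Htr5b with Htr5a, Adrb1 with Adrb3 and Drd2 with Drd1. Among the 8 highest members, 21 of 28 pairs separated.

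Sorted by the G protein each receptor is known to use, the Gi/o and Gq/11 classes had close sums over all transcripts. Their sums over transcripts labelled coding were farther apart. The 13 Gi/o-coupled genes summed to 39.7 TPM in replicate 1 and 36.01 TPM in replicate 2, with Chrm2, Htr1b and Htr1a as the leading genes. The 9 Gq/11-coupled genes summed to 38.3 and 41.4 TPM, led by Adra1b and Htr2c. Over all transcripts neither class was the higher in both libraries. Over transcripts labelled coding the Gi/o sum was higher in both, at 37.7 and 34.8 TPM, against 27.7 and 29.2 TPM for Gq/11. The Gq/11 members Adra1b, Htr2c, Adra1a and Chrm3 had transcripts labelled noncoding. Among these, Adra1b-202, at 3.95 and 4.29 TPM, has the same sequence as the coding Adra1b-204. Part of the gap therefore rests on a label. The 7 Gs-coupled genes summed to 19.8 and 19.0 TPM, of which Htr7 alone gave 70.9% and 72.0%. The channel subunits Htr3a and Htr3b summed to 1.67 and 1.56 TPM. Htr5b was left without a class.

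The G protein alpha subunits of each class summed to more than its receptors. The Gs subunits Gnas and Gnal summed to 1401 and 891 TPM, which is 70.9 and 47.0 times the Gs-coupled receptors. Gnas alone had 1363 and 855 TPM. The 5 Gi/o subunits, led by Gnai2 at 266 and 252 TPM and Gnao1 at 197 and 179 TPM, summed to 17.98 and 18.94 times their receptors. The 4 Gq/11 subunits, nearly all Gnaq (87.9 and 87.5 TPM) and Gna11 (87.2 and 80.3 TPM), summed to 4.60 and 4.09 times theirs, while Gna14 was not detected, at 0.49 and 0.53 TPM, nor was Gna15, at 0.68 and 0.93 TPM. Many other receptors share these subunits. All 9 adenylyl cyclases, 3 of 4 phospholipase C beta genes and 7 of 8 measured receptor kinases and arrestins were detected, the last led by Arrb2 at 46.9 and 45.7 TPM, with Grk1 lowest at 0.01 TPM in both.

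Most genes that make, move and break down the transmitters were detected. Of 10 serotonin genes 9 were detected, with the degrading enzyme Maoa at 22.95 and 24.48 TPM, the vesicle transporter Slc18a2 at 16.92 and 14.96 TPM and the neuronal synthesis enzyme Tph2 at 9.14 and 11.55 TPM. Tph1, the enzyme of pineal and gut, was lowest at 0.53 and 0.99 TPM. Of 11 catecholamine genes 10 were detected, among them Maoa and Slc18a2, and the dopamine transporter gene Slc6a3 was lowest at 0.40 and 0.47 TPM. Of 8 acetylcholine genes 7 were detected, led by Ache, the enzyme that splits acetylcholine, at 72.8 and 85.8 TPM. The vesicle transporter Slc18a3 had 22.2 and 18.4 TPM, Isl1, a factor of motor neurons, had 24.6 and 12.3 TPM, and Mnx1 was lowest at 0.21 and 0.02 TPM. Of the 4 histamine receptor genes, the related amine family outside the list, Hrh3 (2.26 and 1.78 TPM) and Hrh1 (1.27 and 1.58 TPM) were detected, Hrh2 had 0.56 and 0.61 TPM, and Hrh4 was listed at 0 in both.

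Much of the TPM of some receptors came from transcripts not annotated as protein-coding. The 32 genes had 64 quantified transcripts, and 19 genes had a single one. In 6 genes, transcripts with another label than protein-coding held over 10% of TPM in both libraries. Adra1b was among them through a transcript identical in sequence to a coding one. For Htr7 the share in transcripts marked for nonsense-mediated decay was 38.9% and 32.6%, nearly all of it in Htr7-204, the form with the cassette exon printed above (33.9% and 31.5%). Among Htr7 coding transcripts, Htr7-202 held 74.8% and 77.3%, and Htr7-205, the form with the GTAAG donor, held 23.3% and 22.7% (23.0 ± 0.456%). The balance of these coding forms thus moved by under 3 percentage points between libraries.

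For Htr2c, the full-length Htr2c-201 held 44.3% and 38.0% of the gene's TPM, and Htr2c-207, which lacks the 95 bases, 11.6% and 11.4%. Htr2c-202, also of 459 codons, had 0.40 and 0 TPM. Of the sum of Htr2c-201, Htr2c-202 and Htr2c-207, the last made up 19.4% in replicate 1 and 23.0% in replicate 2 (21.2 ± 2.55%). A noncoding transcript of 648 bases, Htr2c-205, held 28.6% and 41.1% on 42.7 and 77.1 counts. Because TPM divides by length, those few counts weighed heavily: Htr2c over coding transcripts had 6.67 and 6.99 TPM, against 10.82 and 13.29 TPM over all transcripts.

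The same held for Htr1d and Chrm3, whose TPM was higher in replicate 1 while their counts were higher in replicate 2. Htr1d had 171 and 193 counts, and its noncoding Htr1d-204 of 363 bases held 39.6% and 14.96% of TPM on 10.3 and 3.14 counts. Chrm3 had 222 and 283 counts, and its noncoding Chrm3-203 of 584 bases held 45.7% and 23.6% on 19.5 and 9.65 counts. Over coding transcripts alone, Htr1d had 2.37 and 2.63 TPM and Chrm3 had 1.90 and 2.51 TPM, in both cases higher in replicate 2, as their counts were.

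For Adra1b, part of the split between transcripts rested on annotation. Adra1b-203 held 43.8% and 46.5% of Adra1b TPM. Adra1b-204, labelled coding, and Adra1b-202, labelled noncoding, have identical sequences of 3047 bases, and each was given 28.1% and 26.7%. The noncoding share of Adra1b is therefore a label, and its reads cannot be told apart from coding ones. Adra1a-202, with 466 codons, held 57.7% and 58.5% of Adra1a, Adra1a-203, with 427 codons, held 22.4% and 16.1%, and the retained-intron Adra1a-204 held 19.9% and 22.5%. Chrm2 was nearly all in its coding form Chrm2-202, at 95.3% and 92.8%.

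**Figure D3:**
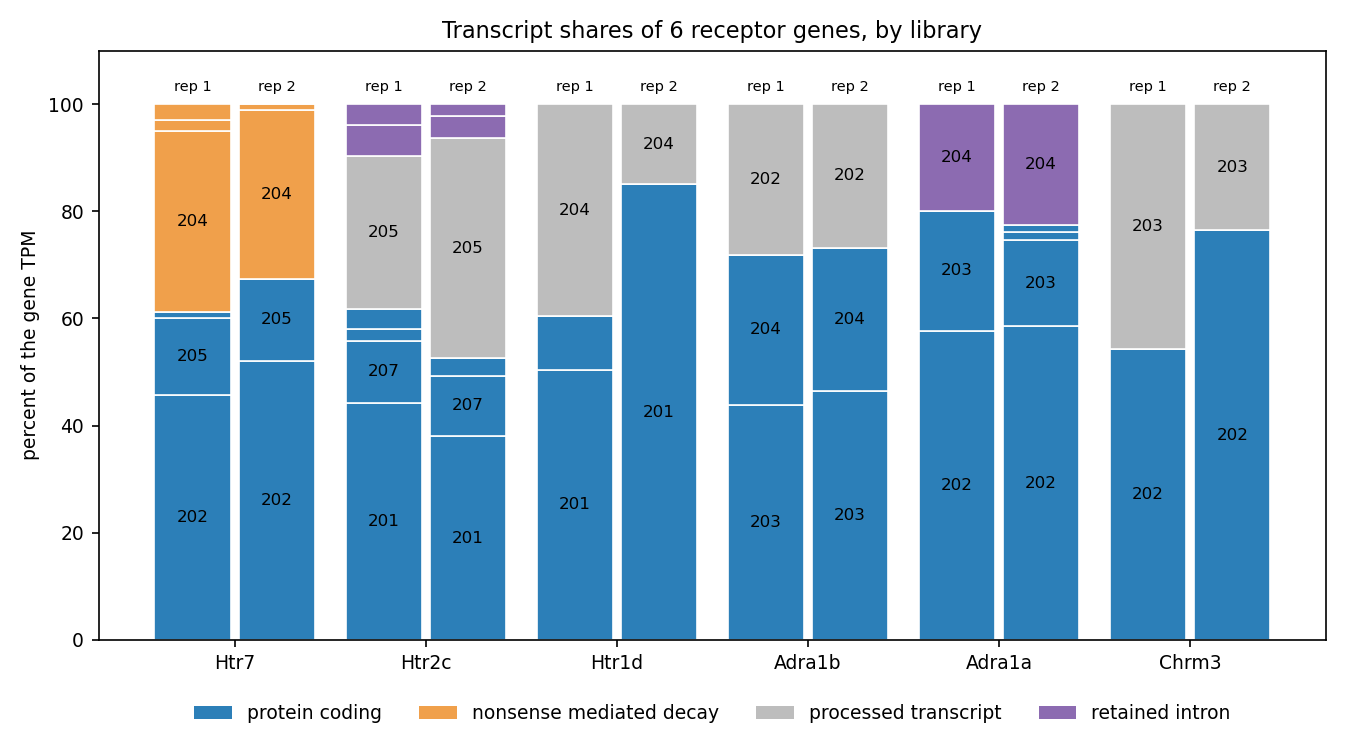
Percent of each gene's TPM in each transcript, by library, for the 6 detected receptors in which at least 2 transcripts had a mean share of 10% or more. Colours give the annotated type and the numbers are transcript names for shares of 10% or more. Htr7-204 takes about a like share in both libraries, and Htr1d-204 and Chrm3-203 are smaller in replicate 2.

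Counting coding transcripts only, the order of the highest receptors was Adra1b (10.9 TPM), Chrm2 (9.56), Htr7 (8.89), Htr2c (6.83), Htr1b (6.75) and Htr1a (5.09), so Chrm2 moved from rank 4 to rank 2 and Htr2c came level with Htr1b. The Adra1b value leaves out Adra1b-202, which shares its sequence with the coding Adra1b-204. The number detected was 18 with either measure. Drd2, with 1 quantified transcript, moved from rank 9 to rank 7. Htr1d moved from rank 8 to rank 11.

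**Figure D4:**
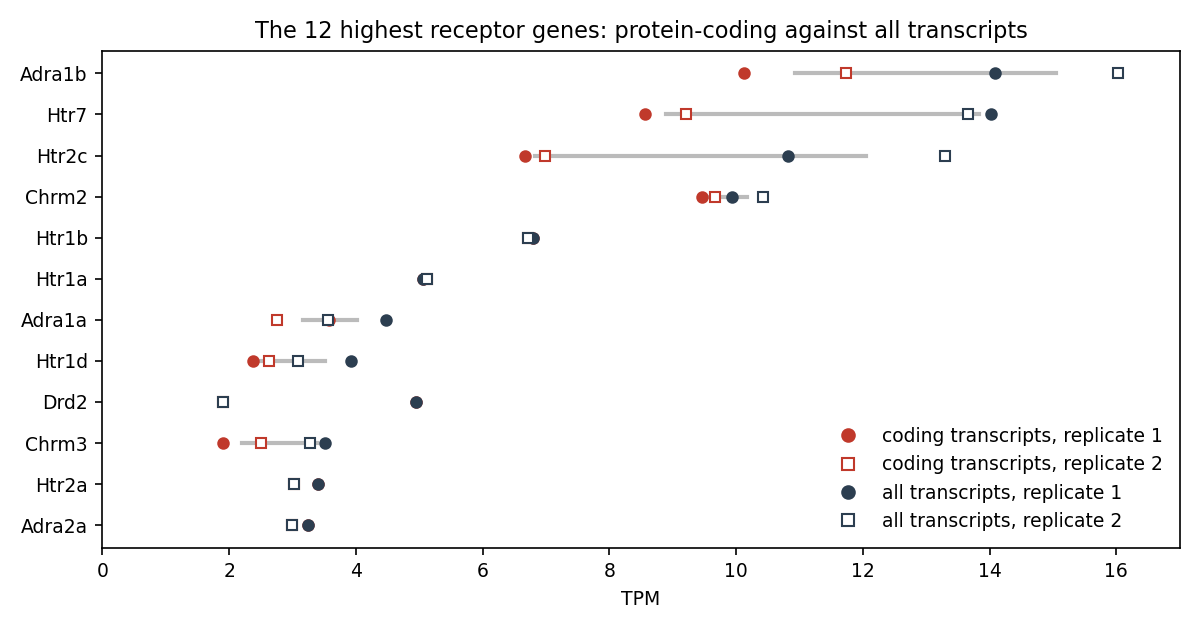
TPM over protein-coding transcripts (red) and over all transcripts (dark) for the 12 highest receptors, with replicate 1 as circles and replicate 2 as squares, and a grey line between the means. Where both measures are equal, as for Htr1b, the dark symbols cover the red. Htr7 and Htr2c lie farthest apart and Chrm2 shifts little.

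Between the libraries the receptors were mostly level, as protein-coding genes were. Of 19 members with a mean of 1 TPM or more, 15 lay within 1.25-fold on scaled counts. Of protein-coding genes at that level, 11639 of 13843 did. Over 2-fold higher in replicate 1 was 1 member, Drd2, where 1.11% of protein-coding genes at that level passed, and over 2-fold higher in replicate 2 was none, where 0.397% passed. Drd2 had 180 counts in replicate 1 and 71 in replicate 2. It was 2.50-fold higher in replicate 1, with a 95% interval of 1.90 to 3.35 that covers counting error only and whose lower end lies just under 2-fold (log2 ratio of replicate 2 over replicate 1 -1.32). The other dopamine receptors did not share a difference of that size: Drd1 was 1.13-fold higher in replicate 1, Drd4 was 1.51-fold higher on 40 and 26 counts with an interval of 0.907 to 2.60, and Drd5 had a log2 ratio of 0.10.

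Genes of forebrain and striatum moved with Drd2 in part. Over 2-fold higher in replicate 1 were 7 of the 11 list genes with 10 counts, and none was in replicate 2. The patterning genes Emx1 and Dlx6 had 0.93 and 0.39 TPM in replicate 1 and were both listed at 0 in replicate 2. Dlx1 had 7.94 and 0.07 TPM. Genes of mature striatal neurons did not pass: Rgs9 had 12.2 and 13.1 TPM, Ppp1r1b had 6.53 and 7.85 TPM, and Adora2a had 3.91 and 2.97 TPM. Gsx2 was lowest of the list at 0.13 and 0.15 TPM. The 8 muscle genes, led by Acta1 at 140 and 9.94 TPM, were higher in replicate 1 as well, and meninges and fibroblast genes summed to 650 and 376 TPM. Their part in the Drd2 difference was not tested.

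When members with 10 counts in either library were taken, 31 qualified. Higher in replicate 1 by over 2-fold were Drd2 and Adrb1, where 2.55% of protein-coding genes passed, and higher in replicate 2 was Adra1d, where 1.24% passed. Adrb1 had 41 and 20 counts, and its ratio of 2.00 lay at the limit, with an interval of 1.16 to 3.66. Adra1d had 11 and 25 counts and was 2.24-fold higher in replicate 2, with an interval of 1.09 to 5.17. Both intervals reach well below 2-fold, so at this depth neither ratio could be placed beyond the limit.

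**Figure D5:**
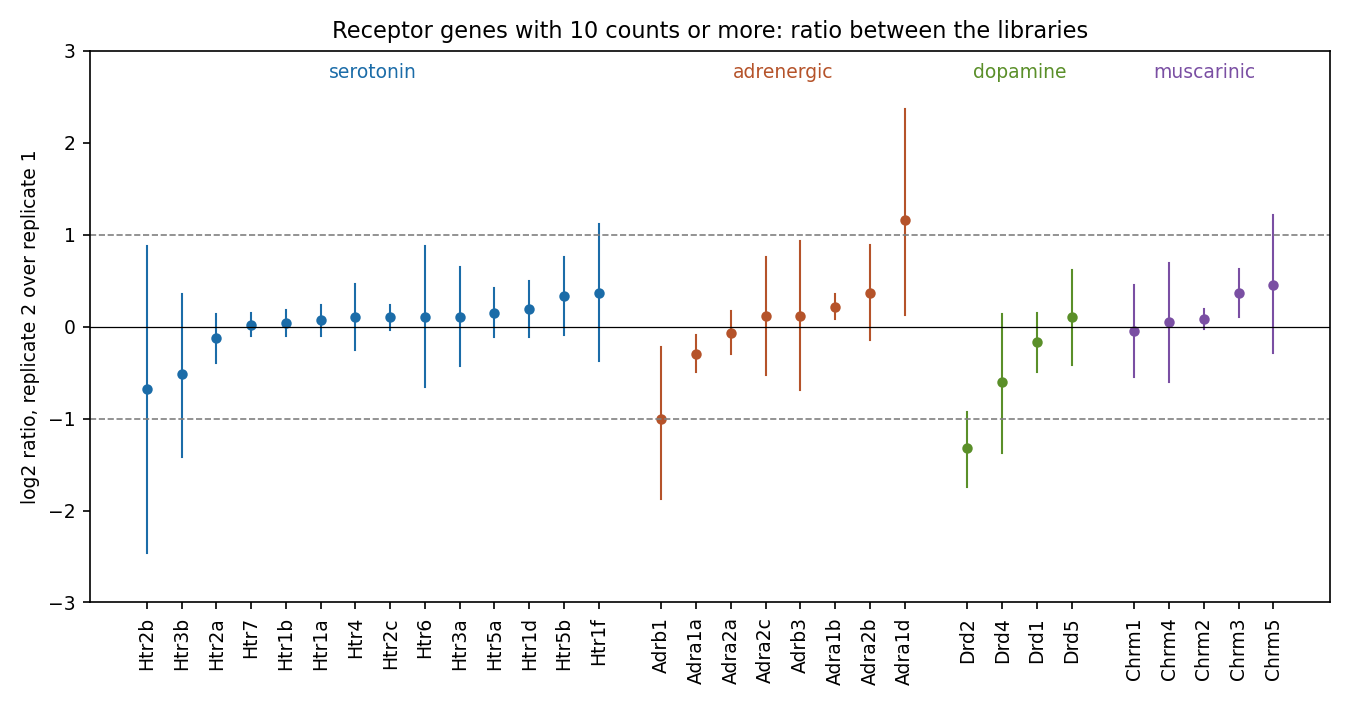
Log2 ratio of replicate 2 over replicate 1 for the 31 receptors with 10 counts or more in a library, with 95% counting intervals as lines and dashed lines at 2-fold. Drd2 at -1.32, Adrb1 at the limit and Adra1d at 1.16 lie on or past the dashed lines, and the best-counted receptors, such as Htr7 and Chrm2, lie near 0.

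The members were also compared in gene structure and promoter composition, which their choice did not use. With 1 coding exon, 8 of 15 members were detected, and with several, 10 of 17. The median of mean TPM was 1.25 in the first set and 1.20 in the second. RefSeq promoter windows on GRCm38.p6, from 250 bases before to 50 after the start, were found for 25 members. Of these 13 had an observed over expected CpG ratio of 0.6 or more, 52.0%, against 53.0% of 16317 protein-coding genes. The ratio reached that limit in 8 of 14 detected members and in 5 of 11 that were not.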

How the data were processed

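Each replicate of the 1 group was quantified separately by the authors on the mm10 assembly and the M4 release of GENCODE, per the deposited notes. For the quantification program, no name or version is given in the sources used here. Per the file headers, the deposited values are expected counts (reads assigned to a gene or transcript by a model), TPM, FPKM, bounds of an interval on TPM, and the percent of a gene's TPM in each transcript. The deposited bounds are treated as scores, since their level is not stated, and TPM lay inside them for 31 members in replicate 1 and all 32 in replicate 2. TPM corrects for transcript length and is scaled over all features with spike-ins. Whether counting used strand is not given.

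GENCODE M21 (GRCm38) supplied symbols, types and positions, joined on identifiers without version. A gene was detected at 1 TPM in both libraries. Pairs were said to differ where their deposited intervals were apart in each library, in the same order. Replicate ratios used expected counts rounded to whole numbers, with spike-ins left out and TMM scaling (edgeR 4.0.16 under R 4.3.3), a prior count of 0.5 and exact binomial intervals. DESeq2 1.42.0 gave alternative size factors. The ratio step was tested on simulated data. Other steps ran in Python 3.11.15 using pandas 2.3.3, SciPy 1.17.1 and NumPy 2.4.6, and figures were drawn with matplotlib 3.10.9. Alternatives covered the minimum, unit, coding transcripts, scaling, prior, filter, pseudocount and each replicate.

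The members and lists were chosen with earlier results of these data known. Every member is named, with the 3 highest and the lowest genes of other lists where informative and transcripts with 10% or more in a library. Emx1, Dlx6, Adora2a and Aqp4 are exceptions to this rule, chosen once their values had been seen. Some genes that enter the counts and sums of lists are not reported here by name. Replicates are separate pools per the labels. The SD over 2 libraries is itself uncertain.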

Additional observations from a re-analysis of the deposited data

How the results depend on the processing

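The number of members detected was 18, and 11 at a minimum of 2 TPM. Between 14 and 25 were detected under the other units, minimums and transcript sets, and 18 to 19 without 1 replicate. FPKM gave family medians of 1.12 (serotonin), 0.372 (adrenergic), 0.630 (dopamine) and 0.750 (muscarinic), and medians over detected members were 3.36, 4.02, 2.65 and 3.40 TPM in the same order. Without 1 replicate, medians ran from 1.74 to 1.99 TPM (serotonin), 0.640 to 0.660 (adrenergic) and 0.980 to 1.29 (dopamine), and stayed at 1.25 (muscarinic). The order of the medians, serotonin, muscarinic, dopamine, adrenergic, held with FPKM, but not over detected members, where adrenergic was highest, nor in replicate 1 alone, where dopamine was above muscarinic. Of 13 pairs, 10 to 11 differed without 1 replicate. No count of pairs was possible for coding transcripts or a pseudocount, which have no deposited intervals per gene. None of the 10 changed direction over coding transcripts or with a pseudocount. Of all 358 separated pairs, coding transcripts alone, a comparison chosen after seeing the data, turned 1 in both libraries (Htr7, then below Chrm2 at 8.57 against 9.46 TPM and 9.21 against 9.67 TPM) and 2 in replicate 1 only (Htr2c with Htr1b, Chrm3 with Drd1). Coding sums by G protein class were also added after seeing the data. Scaling to spike-in totals raised the log2 ratio of every gene alike, by 0.45. Under it 0 members were over 2-fold higher in replicate 1, and Drd2 was at -0.87, although relative to the median of all genes it was at -1.31, as with TMM. Under the other scalings, units and prior, Drd2 ran from -1.38 to -1.30, and at -1.38 from coding TPM, an alternative chosen after seeing the data. With 10 counts, 2 members passed in replicate 1 and 1 in replicate 2. With no filter these were 2 and 2, the added one being Drd3 on 0 and 1 counts. The number of members with several transcripts at 10% was 6, and 4 among coding transcripts.

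No paired analysis was possible because there is 1 group. With 1 group of 2 libraries, replicate spread is an SD on 1 degree of freedom, and neither family nor library differences could be tested. Members under 1 TPM rest on at most 74 counts, and intervals cover counting error only. Transcript shares are model estimates from short reads and were weakest where a short transcript held few counts, as in Htr1d and Chrm3. Overlapping genes on the opposite strand (Htr1b, Chrm2, Htr2b) may share reads.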

Other observations

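Receptor levels per length rest on the gene models used. The Chrm4 and Chrm5 models deposited hold 0 bases outside the coding sequence and stop codon, so reads from untranslated ends would not have been counted for them. For 4 members the longest GENCODE M21 model was over 1.25 times the deposited one, namely Drd4 (2799 against 1334 bases), Htr2a (5606 against 2971), Drd2 (2547 against 1549) and Adra2a (4832 against 3801). How much this changed their TPM was not tested. Only 1 transcript of Drd2 was quantified, so its long and short splice forms were not analysed here.

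The noradrenaline transporter gene Slc6a2, chosen after its values were seen, had 4.48 TPM in replicate 1 and 2.28 TPM in replicate 2, on 672 and 351 counts. The noradrenaline-synthesis gene Dbh had 4.90 and 4.07 TPM.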
